A study of Mus musculus with 4 samples.

Results

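The collagen genes of mouse liver were followed after knockdown of Cux2, a homeobox transcription factor, with small interfering RNA (siRNA). A gene was counted as a collagen when its symbol had the form Col, number, a, number, and its array probes were found through their RefSeq accession. Of 44 such symbols in the gene table, 38 had a probe on the array, 63 probes in all, and the other 6 (Col6a3, Col6a4, Col6a5, Col12a1, Col20a1 and Col22a1) were not analysed here. A gene was tested when a probe cleared the scanner software's background limit (well above background) in 2 or more of its 8 readings, 1 per channel on each of the 4 arrays. Of the 38 genes, 35 passed, among 25092 genes tested in all. The 3 below that limit were Col6a6 and Col9a3, above background in 1 reading each, and Col28a1, above it in 0. Of the 35, 31 were above background in all 8 readings. Just inside the limit stood Col9a1, Col10a1 and Col26a1 with 3 readings each, and Col19a1 with 6.

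The animals were 8-week-old female CD-1 mice, an outbred stock. Treated mice received Cux2 siRNA and were killed 5 days (5 mice) or 8 days (4 mice) later. The 13 control mice received a non-specific siRNA. RNA was pooled before labelling: the treated pools held 3 and 2 mice at day 5 and 2 mice each at day 8, and the controls formed pools of 6 or 7 mice by the series text, or 6 by the sample descriptions. Each of the 4 arrays carried a treated and a control pool in different dyes. Replicate 1 of each day had the treated pool in Alexa 647 and replicate 2 had it in Alexa 555, so replicate and dye orientation coincide. Control pools recur across arrays in a way the labels do not resolve. Whether day 5 and day 8 share control mice is therefore not known. P-values measure the spread between these arrays, which may be in part technical. The time of killing is not given for the controls in the sources used here.

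Values below are log2 ratios of treated over control intensity, so that negative values are falls. Cux2 itself, read by 1 probe, stood at -1.91 and -1.70 on the day 5 arrays and at -1.07 and -1.20 on the day 8 arrays. It was below 0 on all 4 arrays, with means of -1.81 at day 5 and -1.13 at day 8 (SE 0.09 each). All 5 hepatocyte markers tested were well above background in all 8 readings. Between 71.1% and 74.6% of probes per channel were above background, and the number of arrays limits the precision.

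Collagens are extracellular proteins built of chains that wind around each other in trimers. Fibrillar collagens (types I, II, III, V, XI, XXIV and XXVII) form the cable-like fibrils of connective tissue, and type I and type III are the main collagens of liver scar. Type IV forms the sheet-like network of basement membranes, type VI forms beaded microfilaments, and further classes decorate fibrils, anchor epithelia or span the cell membrane. In liver the stellate cell, a vitamin A-storing cell beside the sinusoids, and portal fibroblasts are the known makers of fibrillar collagen. In bulk RNA, fewer cells of a type and less RNA per cell cannot be told apart.

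Over both days, 11 of the 35 tested collagens fell, 3 rose and 21 did not pass the test. The fallers were the chains of types I, III and V except Col5a3, type II, the alpha chains Col4a1 and Col4a2 of type IV, Col6a1, Col6a2 and Col15a1. The risers were Col27a1, Col13a1 and Col14a1. The test was limma's moderated test of the mean of the 4 arrays, called where the Benjamini-Hochberg adjusted p, taken over all 25092 genes, was under 0.05. By the same test 31.1% of all genes were called, 14.8% higher and 16.3% lower. Among collagens 40.0% were called, 8.57% higher and 31.4% lower. The median collagen ratio was -0.05, beside 0.00 for all genes. All 11 fallers were below 0 on 4 of 4 arrays and all 3 risers were above 0 on 4 of 4. The 21 others lay between -0.25 and 0.35. With arrays centred on their median in place of an intensity-dependent loess curve, only Col27a1 passed among collagens, and the count for all genes dropped to 269.

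**Figure D1:**
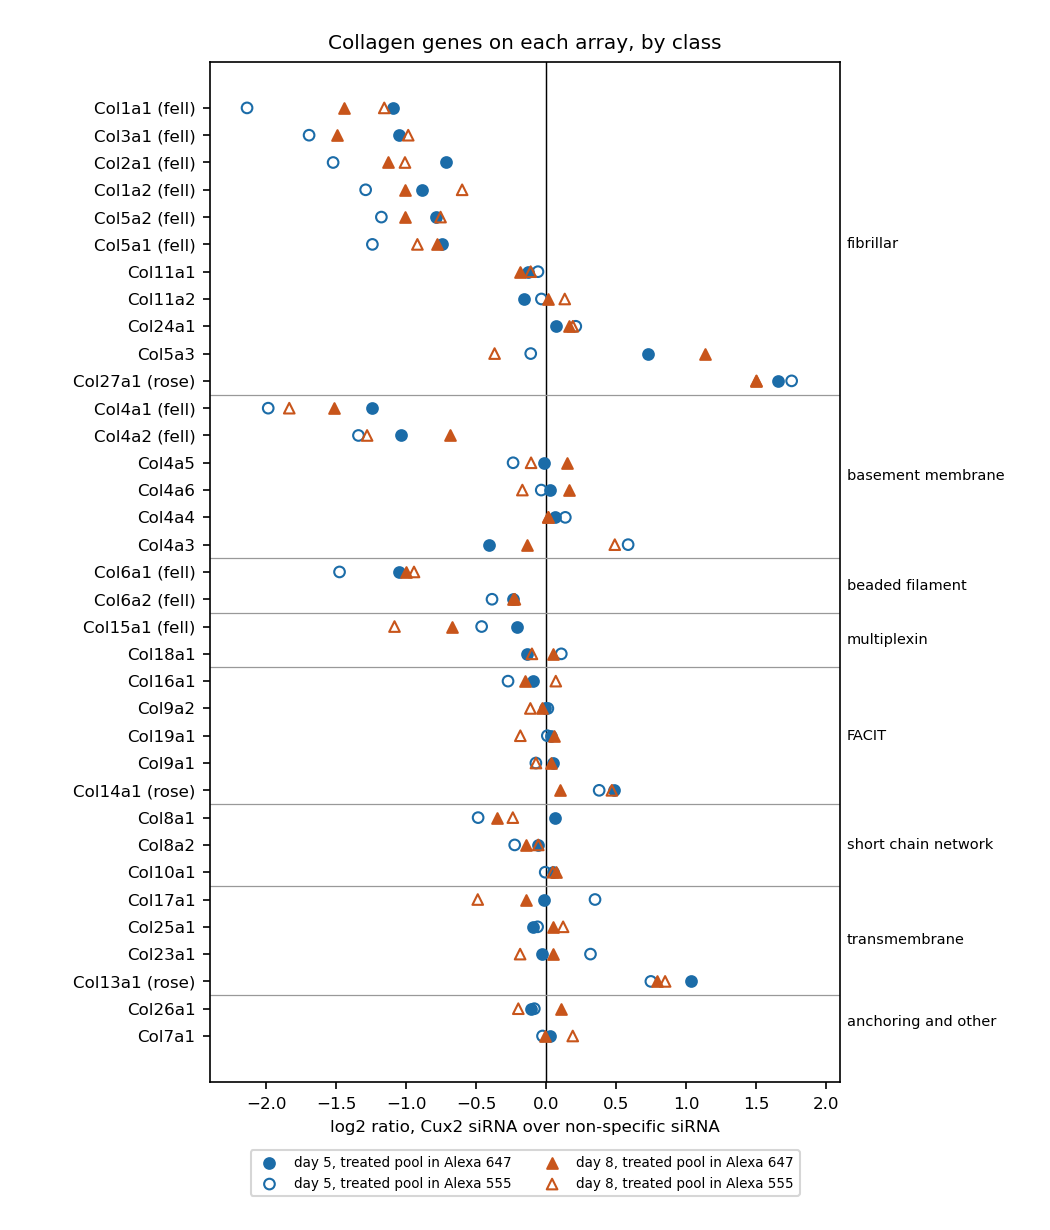
Log2 ratio of treated over control for the 35 tested collagens, grouped by class, with 1 symbol per array (circles day 5, triangles day 8; filled, treated pool in Alexa 647; open, in Alexa 555). All symbols of the 11 genes marked as fallen lie left of 0 and those of the 3 genes marked as risen lie right of it; Col9a1, Col10a1 and Col26a1 were below background in a channel on both arrays of a day and carry only a bound there.

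The fibrillar class held most of the falling genes. Of 11 fibrillar genes tested, 6 fell, 1 rose and 4 did not pass over both days. That is 54.5% lower and 9.09% higher, beside 16.3% and 14.8% of all genes. The median ratio was -0.92. Col1a1 encodes the alpha 1 chain of type I collagen. Its ratios were -1.09 and -2.14 at day 5 and -1.44 and -1.16 at day 8. The second array of day 5 was the lowest, and every array was below 0. Its mean over both days was -1.46 (SE 0.18, n = 4), or 36.4% of the control level, with an adjusted p of 0.00651 in limma. Col1a2, the partner chain of type I, stood at -0.89 and -1.29 at day 5 and at -1.01 and -0.60 at day 8. Again the lowest reading came from the second array of day 5. The mean was -0.95 (SE 0.10, n = 4, adjusted p = 0.0048), 51.9% of control.

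Col3a1 encodes the only chain of type III collagen, which forms fine reticular fibrils. It read -1.05 and -1.69 at day 5 and -1.49 and -0.98 at day 8. The replicate with the lower value was not the same on both days. The mean was -1.30 (SE 0.14, n = 4, adjusted p = 0.00466), 40.5% of control. A further, dimmer Col3a1 probe averaged -0.13. Type V collagen regulates how type I fibrils begin. Col5a1 read -0.75, -1.24, -0.78 and -0.92 in array order (day 5 replicates 1 and 2, then day 8 replicates 1 and 2). Col5a2 read -0.79, -1.18, -1.01 and -0.75. Both genes lay in a narrow band below 0, lowest on the second array of day 5. Their means were -0.92 (SE 0.09, adjusted p = 0.00417) and -0.93 (SE 0.09, adjusted p = 0.00348), 52.8% and 52.4% of control. A further, dimmer Col5a1 probe averaged -0.03. The further type V chain, Col5a3, did not pass. Its ratios were 0.73 and 1.14 with the treated pool in Alexa 647 and -0.11 and -0.37 with it in Alexa 555, so its sign followed the dye orientation on both days. Its SE, 0.28, was the highest of the family, around a mean of 0.35 (adjusted p = 0.418).

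Col2a1 encodes the collagen of cartilage, which is not known as a main liver collagen. Its ratios were -0.71, -1.52, -1.13 and -1.01, all below 0. The mean was -1.09 (SE 0.14, n = 4, adjusted p = 0.00693), 46.9% of control. A further Col2a1 probe, above background in all 8 readings, averaged only -0.12. Type XI chains, partners of type II in cartilage fibrils, did not pass: Col11a1 averaged -0.12 (adjusted p = 0.133) and Col11a2 -0.01 (adjusted p = 0.903). Among the shorter-helix fibrillar collagens, Col24a1 read 0.07, 0.21, 0.16 and 0.19. It lay above 0 on every array but did not pass (mean 0.16, SE 0.05, adjusted p = 0.0752). A further Col24a1 probe, above background in all 8 readings, read higher at 0.27, 0.49, 0.22 and 0.53 (mean 0.38). Its mean log2 intensity was 6.64, against 6.78 for the probe used.

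Col27a1, a fibrillar collagen of cartilage and developing epithelia, was the 1 fibrillar gene that rose. It read 1.65 and 1.75 at day 5 and 1.50 on each day 8 array. The 4 readings spanned less than those of any falling fibrillar gene and none came near 0. Its mean was 1.60 (SE 0.05, n = 4, adjusted p = 0.000454), 3.04 times the control level.

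Among the 6 type IV chains, the basement membrane class, 2 fell and 4 did not pass. The share called was 33.3%, all of it lower, beside 31.1% of all genes called and 16.3% lower. Col4a1 and Col4a2 encode the chains of the common type IV network, found in most basement membranes. Col4a1 read -1.24 and -1.98 at day 5 and -1.51 and -1.83 at day 8. On each day replicate 2 (treated pool in Alexa 555) was the lower, and all were below 0. The mean was -1.64 (SE 0.14, n = 4, adjusted p = 0.00286), 32.0% of control, the lowest of the family. Col4a2 read -1.04, -1.34, -0.69 and -1.28, again lower with the treated pool in Alexa 555. Its mean was -1.09 (SE 0.12, adjusted p = 0.00464), 47.1% of control.

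The other type IV chains make the networks of restricted sites such as kidney filter and smooth muscle sheaths. Col4a4 read 0.07, 0.14, 0.01 and 0.02 (mean 0.06, SE 0.05). Col4a5 read -0.01, -0.24, 0.15 and -0.11 (mean -0.05, SE 0.07), and Col4a6 averaged -0.00 (SE 0.07). These 3 means stayed within 0.1 of 0, with adjusted p of 0.409, 0.647 and 0.975. Col4a3 read -0.41 and -0.14 with the treated pool in Alexa 647 and 0.59 and 0.49 with it in Alexa 555, so its replicates disagreed in sign on both days (mean 0.13, SE 0.20, adjusted p = 0.662). The sign went with the dye orientation, the same way on both days, in Col4a3, Col4a6, Col5a3 and Col9a1, the last near background.

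Type VI collagen had 2 tested chains and both fell, beside 16.3% of all genes. Col6a1 read -1.05, -1.47, -1.002 and -0.94. Its mean was -1.12 (SE 0.08, n = 4, adjusted p = 0.00229), 46.1% of control. Col6a2, which pairs with Col6a1 in the same microfilament, read -0.23, -0.39, -0.24 and -0.22. All 4 readings were below 0 but all stood above the highest of Col6a1. Its mean was -0.27 (SE 0.05, adjusted p = 0.0202), 83.0% of control. The size depended on the signal used: it was -0.61 with the scanner software's processed signals and -0.08 with no background subtraction. The call was lost with any array left out (adjusted p of 0.0526 or 0.104 on dropping replicate 1 or 2 of day 5, and of 0.0766 or 0.0818 on dropping replicate 1 or 2 of day 8).

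The multiplexins, types XV and XVIII, lie at the outer face of basement membranes and carry endostatin-like fragments. Col15a1 read -0.21 and -0.46 at day 5 and -0.67 and -1.08 at day 8. Both day 8 arrays were lower than both day 5 arrays. Over both days the mean was -0.61 (SE 0.09, n = 4, adjusted p = 0.0102), 65.7% of control, and it was -0.31 with no background subtraction. A further, dimmer Col15a1 probe averaged -0.22. Col18a1, a collagen that hepatocytes make in quantity, read -0.14, 0.11, 0.05 and -0.10. It straddled 0 and did not pass (mean -0.02, SE 0.07, adjusted p = 0.861).

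The remaining risers were Col13a1 and Col14a1. Col13a1 is a membrane-spanning collagen of cell adhesion sites. It read 1.04 and 0.75 at day 5 and 0.79 and 0.85 at day 8. All arrays were well above 0, with a mean of 0.86 (SE 0.07, n = 4, adjusted p = 0.00242), 1.81 times control. A further, dimmer Col13a1 probe averaged 0.18. Col14a1 is a fibril-associated (FACIT) collagen that binds the surface of type I fibrils. Its readings were 0.49, 0.38, 0.10 and 0.47, lowest on the first array of day 8. The mean was 0.36 (SE 0.08, adjusted p = 0.027), 1.28 times control. The call for Col14a1 was lost without day 5 replicate 1 (adjusted p = 0.103), day 5 replicate 2 (0.0822) or day 8 replicate 2 (0.0776), and with the scanner software's processed signals (0.0511), with the authors' value table (0.0512) or with no background subtraction (0.0566).

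In the other classes no gene passed. They comprised the other 4 of 5 FACIT genes, the 3 short-chain network genes, the other 3 of 4 transmembrane genes, and the pair formed by Col7a1, which anchors epidermis to dermis, and Col26a1. Col8a1, a short-chain collagen of vessel walls, had the lowest mean among them. It read 0.07, -0.48, -0.35 and -0.24 (mean -0.25, SE 0.10, adjusted p = 0.131), below 0 on 3 of 4 arrays. Outside the fibrillar and type IV classes, 2 of 18 genes rose and 3 fell over both days, and their median was -0.03. That is 27.8% called (11.1% higher, 16.7% lower), near the 31.1% (14.8% and 16.3%) of all genes.

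Promoter sequence is shown for a chain that fell in each of types I and III and for Col27a1 and Col13a1, which rose the most, so that the start regions of genes that moved apart can be read side by side. Each is the 250 bases before the annotated start, 5' to 3' on the gene's strand, from RefSeq on GRCm38.p6. Capitals mark a TATA box (the letters TATAAA). They likewise mark a CCAAT box, spelled as named, and a GC box (the letters GGGCGG), each searched on both strands. The windows are chr6:4505368-4505617 (plus strand) for Col1a2, chr1:45311288-45311537 (plus) for Col3a1, chr4:63215162-63215411 (plus) for Col27a1 and chr10:61979109-61979358 (minus) for Col13a1.
Col1a2: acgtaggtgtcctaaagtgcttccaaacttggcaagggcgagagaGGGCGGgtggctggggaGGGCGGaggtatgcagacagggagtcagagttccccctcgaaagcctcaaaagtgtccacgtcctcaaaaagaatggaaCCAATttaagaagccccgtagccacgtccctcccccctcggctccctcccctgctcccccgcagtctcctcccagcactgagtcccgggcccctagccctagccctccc
Col3a1: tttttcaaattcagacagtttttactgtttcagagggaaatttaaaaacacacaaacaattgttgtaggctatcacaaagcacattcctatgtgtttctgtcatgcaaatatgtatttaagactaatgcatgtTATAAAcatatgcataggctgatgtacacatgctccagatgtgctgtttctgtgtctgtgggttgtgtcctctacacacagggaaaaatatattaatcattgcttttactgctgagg
Col27a1: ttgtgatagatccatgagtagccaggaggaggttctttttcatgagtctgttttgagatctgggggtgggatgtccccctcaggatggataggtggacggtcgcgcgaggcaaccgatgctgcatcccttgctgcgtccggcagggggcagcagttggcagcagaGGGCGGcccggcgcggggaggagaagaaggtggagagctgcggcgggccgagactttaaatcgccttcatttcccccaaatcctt
Col13a1: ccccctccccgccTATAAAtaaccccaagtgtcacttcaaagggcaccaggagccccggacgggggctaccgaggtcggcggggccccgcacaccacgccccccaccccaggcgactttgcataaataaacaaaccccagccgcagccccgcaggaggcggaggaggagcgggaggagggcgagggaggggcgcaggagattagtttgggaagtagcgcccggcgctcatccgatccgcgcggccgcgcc
The Col1a2 window held 2 GC boxes, 205 and 188 bases before the start, and CCAAT 109 bases before it. The Col3a1 window held TATAAA 117 bases before the start, the Col27a1 window a GC box 85 bases before it and the Col13a1 window TATAAA 237 bases before it. These matches are letters in a window and were not measured as sites.

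Sequences were on hand for 29 of the 35 tested collagens, in 32 windows. On either strand GGGCGG was in 19 of the 32 (59.4%) and in 32.7% of 32851 windows of all genes. CCAAT was in 12 (37.5%, beside 33.8% of all), and TATAAA in 5 (15.6%, beside 12.4%). The letters ATCGAT, a core sequence known for Cut-type factors such as Cux2, were in 0 of the 32 collagen windows and in 0.728% of all. With so rare a match, 0 in 32 windows cannot set collagens apart from all genes. No match in the printed windows overlaps another, and no motif count was tested. The starts of Col4a1 and Col4a2, the pair of type IV genes that fell, lie on opposite strands of chromosome 8, 21 bases apart in the annotation, so their windows of 300 bases (250 before to 50 after the start) shared 78 bases. Col4a5 and Col4a6 also lie on opposite strands, on chromosome X, with starts 1343 bases apart, and their windows shared 0 bases.

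Taken by day, the family gave similar counts. At day 5, 9 collagens fell and 2 rose, beside 9.43% and 7.38% of all genes (16.8% called in all). At day 8, 10 fell and 2 rose, beside 8.05% and 6.27% of all genes (14.3% called). The collagen shares were 25.7% lower and 5.71% higher at day 5, and 28.6% lower and 5.71% higher at day 8. Of the 14 genes called over both days, 11 passed on each day alone; Col15a1 passed at day 8 only, and Col6a2 and Col14a1 on neither. The fibrillar class had the same counts on both days, 6 lower and 1 higher, with medians of -0.98 and -0.80. With the replicate number, which is also the dye orientation, as a block, Col15a1 (adjusted p = 0.0193), Col6a2 (0.0241) and Col14a1 (0.0301) passed at day 5 as well. These single-day calls rest on 2 arrays. With 1 of them left out, the day has a lone array, which is assumed to vary like the pair of the other day. Without day 5 replicate 2 only Col27a1 passed at day 5 (the 10 lost had adjusted p of 0.054 to 0.125), and without day 5 replicate 1, 9 of 11 passed, Col13a1 and Col4a2 being lost (adjusted p 0.0547 to 0.066). Without day 8 replicate 2 only Col27a1 passed at day 8 (0.088 to 0.169), and without day 8 replicate 1, Col27a1, Col4a2 and Col15a1 did (0.055 to 0.167 for the others). With median centring 0 collagens passed in limma on either day, and 11 and 12 had an unadjusted p under 0.05.

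The difference between the days passed for 0 collagens and for 0 genes of 25092 (0% called). In limma 620 genes had an unadjusted p under 0.05, 1 of them a collagen, Col15a1. Its day 5 mean was -0.33 (SE 0.13, adjusted p = 0.15) and its day 8 mean -0.88 (SE 0.13, adjusted p = 0.0204). The difference was -0.54 (SE 0.18, unadjusted p = 0.032, adjusted p = 1.00). Over all 35 collagens the day 8 minus day 5 difference ran from -0.54 to 0.31 with a median of 0.04. The largest positive value was that of Col1a1, which read -1.61 (SE 0.26) at day 5 and -1.30 (SE 0.26) at day 8. Its difference of 0.31 had an SE of 0.36, so it was within the error.

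**Figure D2:**
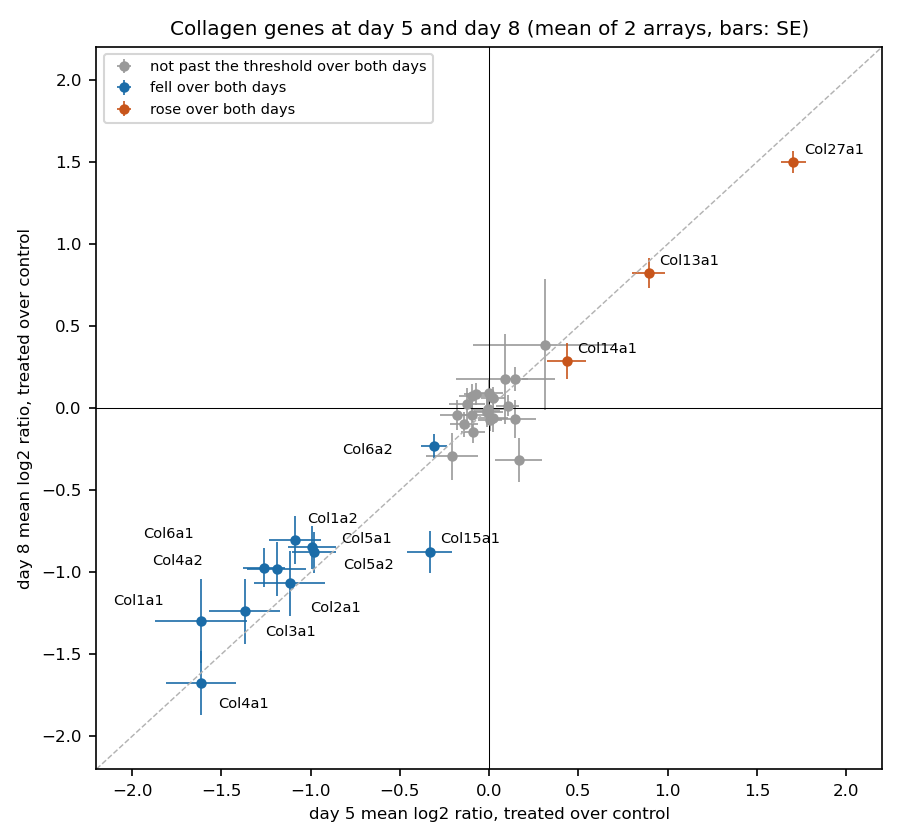
Mean log2 ratio of each collagen at day 8 against that at day 5 (2 arrays each; bars are the SE of the fit; the dashed line marks equal values). Falling genes range from Col4a1 at -1.61 and -1.67 to Col6a2 at -0.31 and -0.23, Col27a1 stands apart at 1.70 and 1.50, and Col15a1 lies below the line at -0.33 and -0.88.

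Of the 14 called collagens, 9 had a further probe that passed the filter, and the mean of that probe had the same sign in 9 of 9. The sign was also the same on all 4 arrays in 8 of the 9, the exception being Col5a1. Col4a1 averaged -1.26 on its further probe against -1.64 on the brighter one, and Col4a2 -1.02 against -1.09. For Col27a1 the values were 1.24 and 1.60, and for Col1a1 -0.91 and -1.46. In these 4 genes both probes were well away from 0. For the other genes the further probe was nearer 0: Col3a1 averaged -0.13 at a mean log2 intensity of 6.13, against -1.30 at 14.2. Col2a1 averaged -0.12 at 7.43, against -1.09 at 9.28, with its further probe above background in all 8 readings. The brightness gap of Col2a1 was smaller than that of Col1a1 (7.79 against 11.7) or Col27a1 (7.75 against 9.74). Col5a1 averaged -0.03 at 6.22 and -0.92 at 10.72, Col13a1 0.18 at 6.30 and 0.86 at 10.5, and Col15a1 -0.22 at 6.54 and -0.61 at 8.17. The further probes were thus dimmer in all 9 genes; the part of probe brightness in the ratio was not tested. With the mean of all kept probes in place of the brightest, the values over both days became -0.72 for Col3a1, -0.61 for Col2a1, -0.48 for Col5a1 and 0.52 for Col13a1. Col1a2, Col5a2, Col6a1, Col6a2 and Col14a1 rested on 1 probe each. With no background subtraction Col5a2 averaged -0.54 and Col6a1 -0.66.

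**Figure D3:**
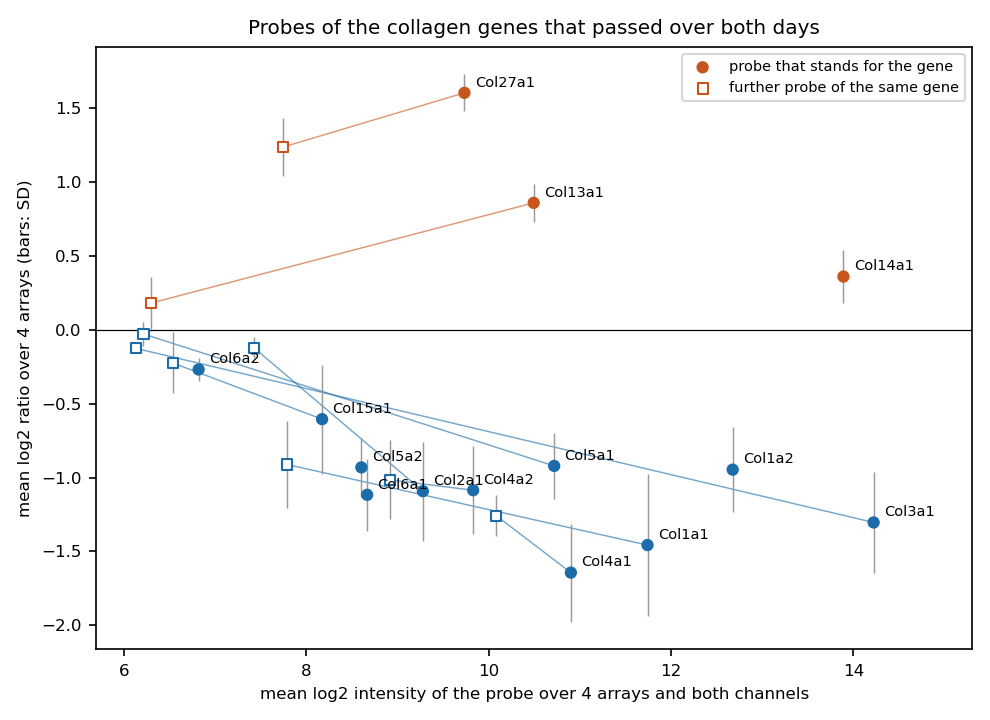
Mean log2 ratio over 4 arrays (bars: SD) against mean log2 intensity for each kept probe of the 14 called collagens; filled circles stand for the gene, open squares are further probes, and lines join probes of 1 gene. Further probes of Col4a1, Col4a2, Col1a1 and Col27a1 stay at -0.91 or beyond, or at 1.24. Those of Col2a1, Col3a1, Col5a1, Col13a1 and Col15a1 lie between -0.22 and 0.18.

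Collagen chains are hydroxylated and glycosylated in the endoplasmic reticulum, folded and exported there with dedicated helpers, trimmed outside the cell, crosslinked, and later degraded. Of 84 listed genes of these steps and of collagen binding, signalling and basement membrane assembly, 72 were tested; 28 fell, 11 rose and 33 did not pass over both days, beside the 31.1% of all genes called. That is 54.2% called, with a median of -0.17. At day 5, 18 fell and 5 rose (31.9% called, beside 16.8% of all genes), and at day 8, 15 fell and 7 rose (30.6%, beside 14.3%). Leaving out 1 array gave 22 to 30 calls in place of 39: 22 without day 5 replicate 2 and 25 without day 5 replicate 1. With each array left out in turn, 18 of the 39 kept their call throughout. With median centring 2 passed. All 39 kept their sign under every alternative run.

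In chain modification, 3 of 13 genes rose and 1 fell, a share of 30.8% called that is near the 31.1% of all genes. P4ha2, a catalytic subunit of prolyl 4-hydroxylase, read 1.22, 1.68, 1.26 and 1.50, high on every array. Its mean was 1.41 (SE 0.10, n = 4, adjusted p = 0.00186), 2.67 times control. P4ha1, the other main catalytic subunit, rose by 0.47 (SE 0.05, adjusted p = 0.00468). P4hb, the shared partner subunit and a general disulfide isomerase, fell by 0.70 (SE 0.05, adjusted p = 0.00186), with readings from -0.65 to -0.73. Colgalt2, a collagen galactosyltransferase, rose by 0.41 (adjusted p = 0.0128), a call lost without either day 5 array (highest adjusted p 0.0567).

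Of 6 folding and export genes, 4 fell (66.7%) and 1 rose (16.7%), beside 16.3% and 14.8% of all genes. The list's median was -0.36. Serpinh1, the collagen-specific chaperone HSP47, read -0.47, -0.93, -0.66 and -0.96. Its mean was -0.76 (SE 0.10, adjusted p = 0.00743), 59.2% of control. Fkbp10, a prolyl isomerase needed for type I procollagen crosslinking, averaged -0.95 (SE 0.09, adjusted p = 0.00351). Fkbp14, a related isomerase, went the other way at 0.61 (SE 0.05, adjusted p = 0.00293). Mia3 (TANGO1), the export receptor for bulky procollagen, averaged -0.40 (adjusted p = 0.0237), a call that held only without day 8 replicate 2 when arrays were left out (highest adjusted p 0.0929).

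Outside the cell, 2 of 4 genes of propeptide removal fell and 1 rose. Pcolce, which enhances removal of the C-propeptide, averaged -0.61 (SE 0.06, adjusted p = 0.00342). Adamts2, the N-propeptidase, averaged -0.39 (adjusted p = 0.0245), and Bmp1, the C-propeptidase, 0.33 (adjusted p = 0.0118). The calls of these last proteases were each lost without 2 arrays: Adamts2 without day 5 replicate 2 or day 8 replicate 1 (highest adjusted p 0.0909), Bmp1 without either day 5 array (0.0611). Of 5 crosslinking genes, 3 fell (60.0%, beside 16.3% of all genes) and 0 rose. All 3 are lysyl oxidases, and Loxl2 fell the furthest, reading -0.60, -0.997, -0.76 and -0.86 (mean -0.80, SE 0.08, adjusted p = 0.00397). Loxl1 averaged -0.58 (adjusted p = 0.0166) and Lox -0.38 (adjusted p = 0.0109). Loxl1 lost its call without either day 8 array (highest adjusted p 0.0629), and Lox without day 5 replicate 2 or day 8 replicate 2 (0.0576).

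Among 6 genes of fibril-binding proteins, 2 rose (33.3%) and 1 fell (16.7%), beside 14.8% and 16.3% of all genes. Dcn, the small proteoglycan decorin, averaged 0.36 (SE 0.08, adjusted p = 0.0264), Tnxb, tenascin X, 0.21 (SE 0.05, adjusted p = 0.0343), and Lum, lumican, -0.66 (SE 0.17, adjusted p = 0.041). The calls of all 3 were lost with at least 2 arrays left out in turn: Tnxb with any of the 4 (highest adjusted p 0.151), Dcn with any but day 8 replicate 1 (0.0943) and Lum with either of day 5 (0.138).

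Of 10 genes of collagen breakdown and its inhibitors, 4 fell and 1 rose. Mmp13, the main interstitial collagenase of rodents, read -1.64, -1.57, -1.49 and -0.67, least on the second array of day 8. Its mean was -1.34 (SE 0.14, adjusted p = 0.00433), 39.4% of control. Timp1, an inhibitor of such proteases, averaged -1.05 (SE 0.08, adjusted p = 0.00262). Timp2, another inhibitor, rose by 0.43 (adjusted p = 0.0136), lost without day 5 replicate 2 (0.065). Mmp8, the neutrophil collagenase, was above background in only 4 of 8 readings and averaged -0.34 (adjusted p = 0.0317), lost with any array but day 5 replicate 2 left out (highest 0.118).

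Of 5 collagen receptor genes, 4 fell (80.0%, beside 16.3% of all genes) and 0 rose. Lair1, an inhibitory collagen receptor of immune cells, read -0.83, -0.96, -0.99 and -1.23 (mean -1.003, SE 0.06, adjusted p = 0.00173), 49.9% of control. The integrin chains Itga11 and Itga1 averaged -0.32 (adjusted p = 0.0142) and -0.31 (adjusted p = 0.0255). Itga11 lost its call without day 5 replicate 2 or day 8 replicate 2 (highest adjusted p 0.076), and Itga1 with any array left out (0.106).

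Among 10 profibrotic signalling genes, 2 fell and 1 rose, a share of 30.0% called that is near the 31.1% of all genes. Pdgfrb, the growth factor receptor of stellate cells and pericytes, averaged -0.80 (SE 0.11, adjusted p = 0.0092). Smad7, an inhibitor of transforming growth factor beta signalling, rose by 0.67 (SE 0.09, adjusted p = 0.00811). The ligand Tgfb3 averaged -0.24 (adjusted p = 0.0232), lost with any array left out (highest 0.12). Tgfb1 averaged -0.27 (adjusted p = 0.073) and Ccn2, connective tissue growth factor, 0.17 (adjusted p = 0.411), and neither passed.

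Of 13 basement membrane partners of type IV collagen, 7 fell (53.8%) and 2 rose (15.4%), beside 16.3% and 14.8% of all genes. The list's median was -0.43. Nid1, nidogen, which links type IV collagen to laminin, read -0.70, -0.95, -0.97 and -0.75 (mean -0.84, SE 0.07, adjusted p = 0.0028), 55.8% of control. Sparc, a collagen-binding matrix protein, read -0.60, -1.78, -0.82 and -0.85, lowest by far on the second array of day 5. Its mean was -1.01 (SE 0.20, adjusted p = 0.0207), lost without either day 8 array (highest adjusted p 0.0709). Of the laminin chains, Lama1 averaged -0.57 (SE 0.06, adjusted p = 0.00372), whereas Lamb3 averaged 0.40 (adjusted p = 0.0135) and Lama4 0.37 (adjusted p = 0.0372). The rises of both were lost without either day 5 array, and that of Lama4 also without day 8 replicate 2 (highest adjusted p 0.0612 for Lamb3 and 0.143 for Lama4).

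**Figure D4:**
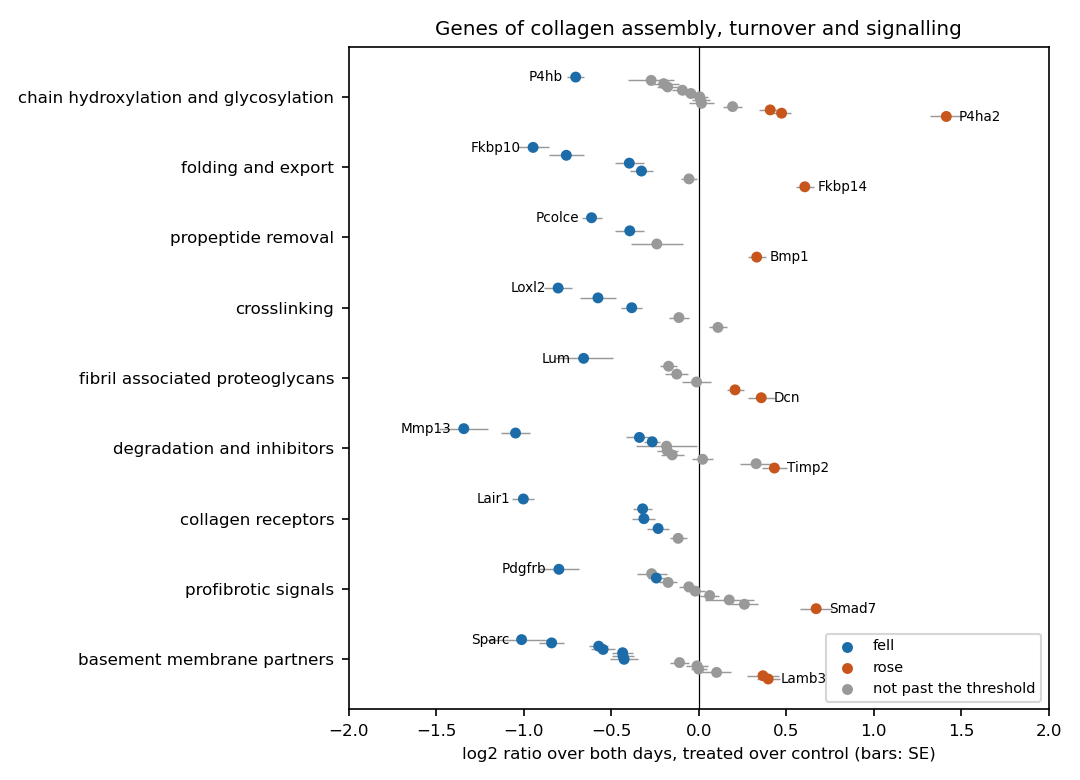
Mean log2 ratio over both days (bars: SE, 4 arrays) of each tested gene in the lists of collagen modification, export, processing, crosslinking, binding, breakdown, reception, signalling and basement membrane assembly. Points from Mmp13 at -1.34 to P4ha2 at 1.41 are shown, and the 3 genes called in crosslinking and the 4 called among receptors lie left of 0.

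Markers of the cells that make collagen, and of others a liver sample can hold, were read on the same arrays. Over both days 16.3% of all genes fell and 14.8% rose. Of 12 stellate cell markers, 6 fell and 2 rose (66.7% called). Tagln, a smooth muscle and myofibroblast protein, read -1.17, -1.46, -1.21 and -1.36 (mean -1.30, SE 0.07, adjusted p = 0.00132). Vim, vimentin, averaged -0.96 (SE 0.09, adjusted p = 0.00339). Lrat, which makes the retinyl esters that quiescent stellate cells store, went the other way, reading 0.57, 0.27, 0.63 and 0.87 (mean 0.58, SE 0.08, adjusted p = 0.00773). Reln averaged 0.91 (SE 0.09, adjusted p = 0.00418). The marker list's median per array was -0.38, -0.36, -0.36 and -0.14, beside -0.71, -1.18, -0.78 and -0.60 for the fibrillar genes. Its summed level ran from 50510 to 64708 intensity units in treated pools and from 59671 to 64506 in control pools. The summed level of the fibrillar genes ran from 17930 to 29475 in treated and from 48301 to 53097 in control pools. Sums of this kind, here and below, add intensities, so the brightest probes weigh most. Among fibrillar genes that was Col3a1, at a mean log2 intensity of 14.2. How often such ranges fail to overlap over all genes was not counted. For type IV genes the ranges were 2446 to 3086 and 5482 to 6295. No stellate marker was below background in all readings, and the part of stellate cell number or state in the collagen values was not tested.

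Of 6 macrophage markers, 4 fell (66.7%, beside 16.3% of all genes) and 0 rose. Marco, a scavenger receptor, averaged -2.84 (SE 0.26, adjusted p = 0.0033), Timd4 -0.80 (adjusted p = 0.0235) and Adgre1, which encodes F4/80, -0.54 (adjusted p = 0.0176). Timd4 lost its call without day 5 replicate 2 or day 8 replicate 2 (highest adjusted p 0.0819), and Adgre1 without day 8 replicate 2 (0.0711). The summed macrophage level was 17784 to 25983 in treated and 30838 to 35731 in control pools. Of 10 endothelial markers, 3 fell (30.0%) and 2 rose (20.0%), with few genes behind each share. Cdh5 averaged -0.36 (adjusted p = 0.0095), Pecam1 -0.31 (adjusted p = 0.0231), Kdr 0.27 (adjusted p = 0.0467) and Vwf 0.24 (adjusted p = 0.0335), while Stab2 averaged -0.08 and did not pass (adjusted p = 0.278). Of these calls only that of Cdh5 held with each array left out. The endothelial medians per array lay between -0.15 and -0.01.

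Of 6 bile duct markers Sox9 alone passed (0.63, SE 0.08, adjusted p = 0.00678), and Krt19 averaged 0.14 (adjusted p = 0.433). Among 4 mesothelial markers only Msln passed (-0.37, adjusted p = 0.00896), a call lost without day 5 replicate 2 (0.0523). Hepatocyte markers fell in 2 of 5: Apob averaged -0.69 (adjusted p = 0.00699) and Ttr -0.27 (adjusted p = 0.0173), the second lost with any array left out (highest 0.087). Alb averaged 0.08 (SE 0.36, adjusted p = 0.893), with a sign that followed the dye orientation.

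Exocrine pancreas markers, which mark tissue outside the liver, had medians of -2.74, -3.94, 0.57 and -3.69 in array order, so 3 arrays were far below 0 and the first of day 8 was above it. Of 8 tested, 3 fell, Pnlip at -3.47 (adjusted p = 0.0482) and Prss2 at -2.66 (adjusted p = 0.0487) among them, both lost without either day 5 array (highest adjusted p 0.157). Cela1 averaged -1.24 and did not pass (adjusted p = 0.257). Their summed level was 1819 to 23173 in treated and 14111 to 40713 in control pools. On the first array of day 8, where the pancreas median was 0.57, Col1a1 read -1.44, Col3a1 -1.49 and Col4a1 -1.51. All 3 were below 0 there and within their range on the other arrays, which is a reading of 3 genes on 1 array. The part of pancreas tissue and of macrophage, endothelial and other cell types in the collagen values was not tested.

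**Figure D5:**
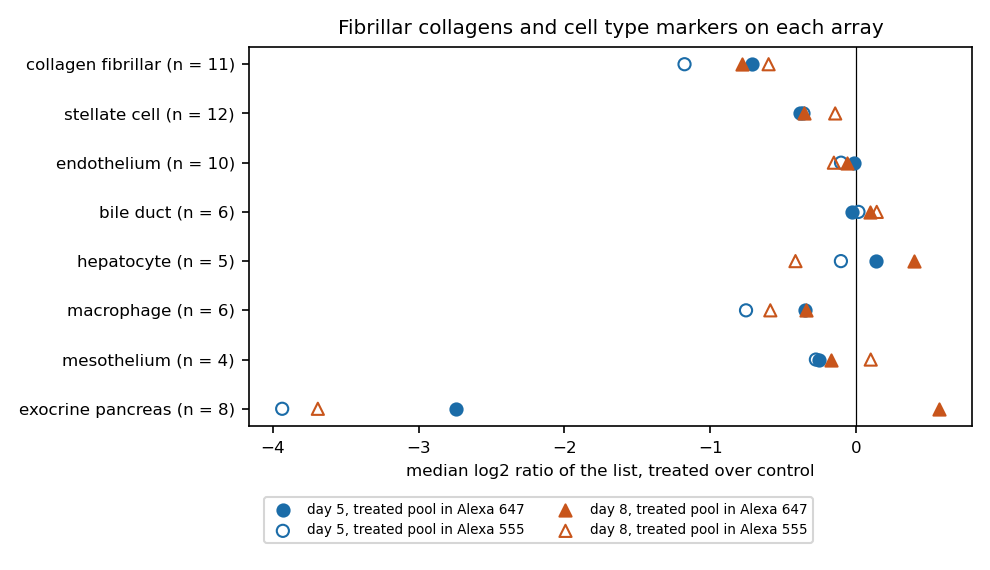
Median log2 ratio per array of the fibrillar collagens and of 7 marker lists (symbols as in the plot of collagen genes by class). The fibrillar medians lie between -1.18 and -0.60 on all 4 arrays, while the pancreas markers lie far below 0 on 3 arrays and at 0.57 on the first array of day 8.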

How the data were processed

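Liver RNA was measured on 4 Agilent 2-colour 44k mouse arrays on 1 slide. Per the file headers, Agilent Feature Extraction 10.7.1.1 produced the scanner files. From these, the authors' deposited intensity values taken here were the median brightness of each spot and its local background, as scanned; the authors' processed intensity values, background-subtracted and dye-normalized per the file headers, were an alternative. The authors' deposited table holds log10 ratios, equal within 1e-05 to the scanner's log10 ratios for 45018 features on every array once turned to treated over control; each column's median was 0.

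In R 4.3.3 with limma 3.58.1, background was corrected by normexp (offset 50) and ratios were normalized by loess within each array, with the 1639 control spots and 99 to 204 outlier spots per array left out; 0 spots were saturated. Ratios were turned to treated over control by the dyes in the labels, and spots averaged per probe. RefSeq accessions matched a gene of the GRCm38.p6 table for 23374 of 41174 probes (56.8%). The design had also named a gene name column, which the scanner files used here lack. Probes above background in at least 2 of 8 readings were kept, and the brightest stood for a gene. The offset pulls ratios of dim probes towards 0. One lmFit and eBayes fit over 4 arrays (2 residual and 2.78 prior degrees of freedom) gave day 5, day 8, their mean and their difference, adjusted by Benjamini-Hochberg. The array design's build differs from that of the gene table, so gene coordinates are given for promoter windows only.

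Members and lists were chosen with earlier results of these data known. A gene of the signalling list is not reported here and was left out of its counts. Genes named from a list were up to 3 called each way (pathway lists), or up to 2 each way and the first marker written (marker lists). Alternatives covered normalization, signals, filter, probe choice, replicate block and each array left out. As a check of the code, the fit was run on simulated independent arrays, which hold no recurring control pools. That run does not give the error rates of the real arrays.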

Additional observations from a re-analysis of the deposited data

Results flagged for a closer look

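For 2 collagens both day 5 arrays lay below 0 and both day 8 arrays above it. Col11a2, a minor fibrillar chain of cartilage, read -0.16 and -0.03 at day 5 and 0.01 and 0.13 at day 8, a difference of 0.17 (SE 0.11). Col25a1, a membrane-spanning collagen of neurons, read -0.09 and -0.06, then 0.05 and 0.12, a difference of 0.16 (SE 0.09). Neither passed in limma (unadjusted p = 0.178 and 0.148, adjusted p = 1.00 for both), and neither passed on a single day or over both days.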

How the results depend on the processing

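The signs of all 14 called collagens over both days stayed the same in 12 of 12 alternatives, and Col27a1 passed in each. The 14 calls over both days became 1 with median centring and 12 to 13 with 1 array left out. The 11 calls of day 5 became 0 with median centring, 5 with processed signals, 4 with the authors' value table, 6 without background subtraction and 1 to 12 with 1 array left out. The 12 of day 8 became 0, 4, 4, 5 and 1 to 12 in the same order. The pathway genes went from 39 calls to 2 with median centring and to 22 to 30 with 1 array left out. The difference between the days called 0 collagens in limma under every alternative, with 0 to 4 at an unadjusted p under 0.05. Over all genes, calls over both days were 7796 (3706 higher, 4090 lower), 269 (87 and 182) with median centring, 4715 and 3879 without replicate 1 or 2 of day 5, and 4298 without replicate 2 of day 8. At day 5 all-gene calls went from 4216 to 5 with median centring, 2010 with processed signals, 1999 with the authors' table, and 824 or 239 without replicate 1 or 2 of that day. At day 8 they went from 3594 to 3, 1476, 1468, and 780 or 137 likewise, and to 2117 without background subtraction. No scaling moved the median of all genes by over 0.1. The replicate block, which here is also the dye orientation, gave 14 collagens at day 5, 12 at day 8, 16 over both days and 49 pathway genes, and took the calls of all genes to 8226 at day 5 and 7449 at day 8. Differences between replicates correlated between the days at 0.50 over genes, but with only 2 pairs the numbers do not show a pairing. Naming by accession alone was not run as an alternative, being the naming used. The limits are 2 arrays per day, pooled mice and control pools that recur across arrays.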
